A study of Mus musculus with 59 samples.

Results

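The T-box genes of the Tbx series that were listed for this description are *Tbx1*, *Tbx2*, *Tbx3*, *Tbx4*, *Tbx5*, *Tbx6*, *Tbx15*, *Tbx18* and *Tbx20*. They were chosen by symbol, and all 9 were found among the 24391 genes measured by RNA-seq in 59 libraries of mouse embryonic stem cells (ESCs) and embryoid bodies (EBs). The study examined which forms of Polycomb repressive complex 1 (PRC1) take part in shutting off genes as ESCs differentiate, in 6 ESC lines that each carry a tamoxifen-inducible Cre (ERT2-Cre). ESCs were kept on feeder fibroblasts with LIF and inhibitors of FGF receptor, MEK and GSK3, and EBs were made by 2 days of suspension culture without them. In each line control cells did not receive 4-OHT, and mutant cells did, so that an effect of 4-OHT itself and an effect of the mutation cannot be told apart.

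The comparisons rest on 2 of the lines. The *Pcgf1* line has the genotype ERT2-Cre;Pcgf1f/f without 4-OHT and ERT2-Cre;Pcgf1delta/delta with it (*Pcgf1*-KO), with 4 control ESC, 5 *Pcgf1*-KO ESC, 5 control EB and 5 *Pcgf1*-KO EB libraries. The point mutant line has the genotype ERT2-Cre;Ring1apm/pm;Ring1b without 4-OHT and ERT2-Cre;Ring1apm/pm;Ring1bpm/pm with it, with 2 libraries in each of the 4 groups, so its controls already carry the altered *Ring1a*. No source used here says whether libraries of 1 group came from separate cultures or clones, so *p*-values measure the spread between these libraries.

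T-box proteins bind DNA through a shared domain, the T-box, and act as activators or repressors that set the fate of cells in the early embryo, mostly in mesoderm, heart, limb and pharynx. *Tbx3* is a repressor that is active in naive ESCs and helps to keep them self-renewing, whereas the other members are best known from later tissues. In ESCs many such later genes lie in CpG-rich DNA that PRC1 occupies. RING1A and RING1B are the catalytic subunits of PRC1 and ubiquitinate histone H2A, and PCGF1 is the subunit that defines a variant PRC1, which is brought to unmethylated CpG islands by the CpG-binding protein KDM2B.

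Promoter sequences are shown because PRC1 containing PCGF1 reads CpG dinucleotides, and the members differ in them. RefSeq promoters of GRCm38.p6 were at hand for 5 of the 9 members, with no entry for *Tbx2*, *Tbx3*, *Tbx5* and *Tbx15*. The 250 bases before the start are printed 5′ to 3′, with each CpG in capitals, for *Tbx20* and *Tbx1*, whose RNA was higher in *Pcgf1*-KO EBs, for *Tbx18*, which was higher in the point mutant, and for *Tbx6*, which passed the main test in no comparison.
Tbx20: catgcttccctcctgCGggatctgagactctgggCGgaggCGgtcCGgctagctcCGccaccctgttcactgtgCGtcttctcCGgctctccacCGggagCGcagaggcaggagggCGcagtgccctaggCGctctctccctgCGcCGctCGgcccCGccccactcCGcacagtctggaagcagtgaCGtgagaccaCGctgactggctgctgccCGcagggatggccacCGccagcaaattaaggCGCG
Tbx1 (first start): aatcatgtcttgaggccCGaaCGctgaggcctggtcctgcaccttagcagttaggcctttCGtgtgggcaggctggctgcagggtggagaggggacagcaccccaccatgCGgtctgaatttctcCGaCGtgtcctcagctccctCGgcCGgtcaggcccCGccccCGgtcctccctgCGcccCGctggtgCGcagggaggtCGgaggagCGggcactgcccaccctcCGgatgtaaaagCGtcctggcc
Tbx1 (second start): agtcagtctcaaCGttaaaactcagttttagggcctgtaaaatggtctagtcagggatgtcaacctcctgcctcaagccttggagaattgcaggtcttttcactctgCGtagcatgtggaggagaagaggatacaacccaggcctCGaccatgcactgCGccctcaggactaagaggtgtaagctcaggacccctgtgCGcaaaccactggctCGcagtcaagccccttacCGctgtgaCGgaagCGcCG
Tbx18: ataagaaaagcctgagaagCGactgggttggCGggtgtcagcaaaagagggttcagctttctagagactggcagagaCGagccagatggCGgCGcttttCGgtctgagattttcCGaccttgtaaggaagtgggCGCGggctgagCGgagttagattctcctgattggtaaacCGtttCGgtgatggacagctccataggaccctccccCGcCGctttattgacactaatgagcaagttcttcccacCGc
Tbx6: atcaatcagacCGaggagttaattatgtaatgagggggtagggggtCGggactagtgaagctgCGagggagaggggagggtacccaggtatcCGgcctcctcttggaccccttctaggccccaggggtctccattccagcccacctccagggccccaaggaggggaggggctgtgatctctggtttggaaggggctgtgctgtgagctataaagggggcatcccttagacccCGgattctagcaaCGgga

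The *Tbx20* window (chr9:24774304-24774553, minus strand) holds 22 CpG, and 14.93% of all 32536 distinct windows of this length hold at least as many. The windows of *Tbx1* hold 17 CpG (chr16:18588900-18589149, minus strand, 23.69% of all windows) and 10 CpG (chr16:18590672-18590921, minus strand, 38.07%). The *Tbx18* window (chr9:87731261-87731510, minus strand) holds 15 CpG, a number that 27.5% of windows reach. The *Tbx6* window (chr7:126781233-126781482, plus strand) holds 6 CpG, the same number as that of *Tbx4* (chr11:85896515-85896764, plus strand), and 50.68% of windows have at least as many. The median over all windows is 6. A link between these CpG numbers and the changes in RNA was not tested. *Tbx2*, *Tbx3* and *Tbx15*, which were higher in point mutant EBs, have no window, and CpG beyond the 250 bases were not counted. The T-box half-site AGGTGTGA, searched on both strands, is in none of the 6 windows of members and in 1.12% of all windows.

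In the mm9 annotation 2 pairs of members are neighbours. *Tbx3* (chr5:120120678-120134733, plus strand) and *Tbx5* (chr5:120284672-120335227, plus strand) are 149.9 kb apart, and *Tbx2* (chr11:85646053-85655450, plus strand) and *Tbx4* (chr11:85699924-85729599, plus strand) are 44.5 kb apart. The others are *Tbx15* (chr3:99044304-99158182, plus strand), *Tbx6* (chr7:133924997-133929074, plus strand), *Tbx20* (chr9:24527648-24578746, minus strand), *Tbx18* (chr9:87597635-87626095, minus strand) and *Tbx1* (chr16:18581806-18588113, minus strand). The values count reads on exons of the whole gene and do not separate isoforms.

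The values are in TPM, a transcript abundance scaled for gene length and library size, so levels of different genes can be set side by side. The files give no read numbers, the depth is unknown, and low values carry a counting error that cannot be given. *Pcgf1* itself, the targeted gene, was between 10.7 and 13.6 TPM in control ESCs and between 0.627 and 2.77 TPM in *Pcgf1*-KO ESCs, and between 7.30 and 16.6 TPM in control EBs and between 0.978 and 2.47 TPM in *Pcgf1*-KO EBs. The point mutations do not remove a transcript, so no level checks the labels of that line. The libraries of the *Pcgf1* line fall into 3 library series by their file headers (replicate 1, replicates 2 and 3, replicates 4 and 5). Over genes of at least 50 TPM the log2 ratio of replicates 4 and 5 of a group had an SD of 0.0722 to 0.101, that of replicates 2 and 3 one of 0.156 to 0.267, and that of libraries from different series one of 0.317 to 0.821. Libraries of 1 series were thus closer to each other than to those of another, and results of this line are given with and without the third series where that changes them. In 21 of the 32 libraries of the other 4 lines the condition in the file name differs from the sample label, so those values are given per library and without any test.

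*Tbx3* was the highest of the 9 members in all 59 libraries and made up between 57.7% and 99.0% of their summed TPM. In the *Pcgf1* line control ESCs had 223, 555, 538 and 298 TPM of *Tbx3* (404 ± 168, SD, n = 4). The next members in control ESCs were *Tbx6*, a gene of presomitic mesoderm, with 2.92 ± 1.67 TPM (SD, n = 4), and *Tbx20*, a gene of the developing heart, with 2.19 ± 1.04 TPM. *Tbx18*, known from the epicardium and sinus node, had 1.05 ± 0.646 TPM, and *Tbx4*, known from hindlimb and lung, had 0.769 ± 0.208 TPM. *Tbx2*, a repressor of the heart and limb, had 0.656 ± 0.348 TPM, and *Tbx15*, known from the skeleton, had 0.537 ± 0.516 TPM. *Tbx1*, a gene of the pharyngeal apparatus, had 0.135 ± 0.101 TPM, and *Tbx5*, a gene of the heart and forelimb, had 0.129 ± 0.109 TPM. *Tbx3* stood clear of all others, and below it the ranges of every pair of neighbours in this order overlapped. In the control ESCs of the point mutant line *Tbx3* had 181 and 161 TPM, and the other 8 members lay between 0 and 0.579 TPM.

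**Figure D1:**
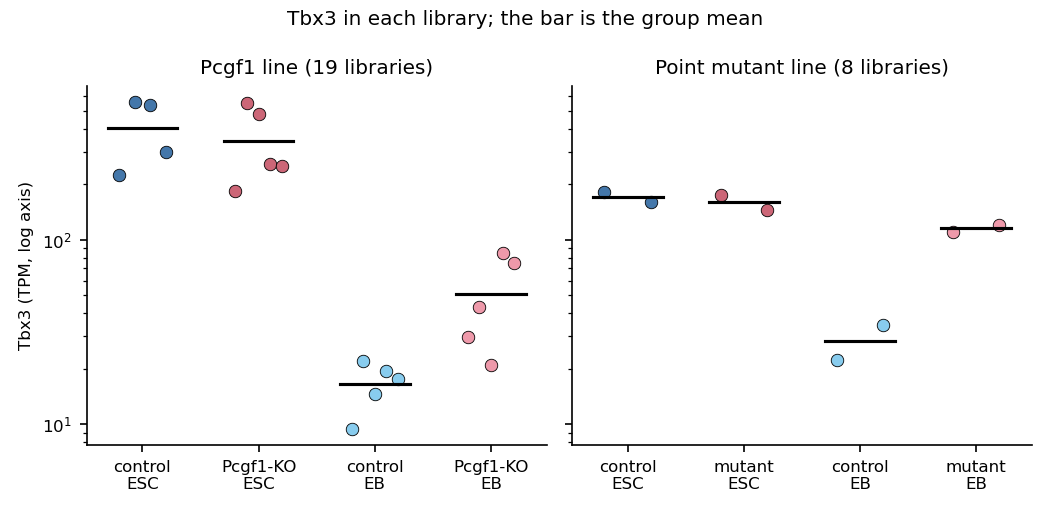
*Tbx3* in TPM on a log axis, 1 point per library, in the 4 groups of the *Pcgf1* line (left) and of the point mutant line (right), with a bar at the group mean. Control EBs of the *Pcgf1* line lie between 9.47 and 21.9 TPM and *Pcgf1*-KO EBs between 20.9 and 84.7 TPM, both below all ESC libraries of that line.

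The first comparison asked how the members changed when control ESCs became EBs. In the *Pcgf1* line *Tbx3*, *Tbx18*, *Tbx20* and *Tbx5* fell and *Tbx4* rose, 5 of 9 members, while 24.9% of the 20594 genes tested changed (11.5% higher and 13.4% lower). *Tbx3* had 9.47, 21.9, 14.7, 19.4 and 17.6 TPM in control EBs. All control EB libraries were far below all control ESC libraries, with a log2 fold change on the TPM + 0.1 scale of -4.55 (SE 0.42, limma adjusted *p* = 5.29e-07). In bulk RNA, fewer cells of a type and less RNA per cell cannot be told apart. *Tbx4* had 0.549, 0.782, 1.05 and 0.697 TPM in control ESCs and 2.92, 5.34, 5.74, 4.82 and 4.49 TPM in control EBs. The groups did not overlap, and *Tbx4* became the second highest member (log2 fold change 2.45, SE 0.46, adjusted *p* = 6.24e-04, limma). The median log2 fold change of the 9 members was -1.21, against -0.0045 over all genes.

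*Tbx18* had 0.5256, 1.09, 1.94 and 0.624 TPM in control ESCs and 0, 0.124, 0.121, 0.0509 and 0.0325 TPM in control EBs. Every EB library was below every ESC library (log2 fold change -2.69, SE 0.47, adjusted *p* = 3.61e-04). *Tbx20* had 1.14, 2.59, 3.46 and 1.59 TPM in control ESCs and 1.21, 0.252, 0.411, 0.276 and 0.199 TPM in control EBs. EB replicate 1 lay within the ESC range and the other EB libraries below it (log2 fold change -2.13, SE 0.44, adjusted *p* = 0.00148), and with the mean of each library series as 1 replicate the call was lost. *Tbx5* was between 0.0567 and 0.288 TPM in control ESCs and was listed at 0 in 4 of 5 control EB libraries, with 0.0386 TPM in the fifth. Its fall (log2 fold change -0.99, SE 0.27, adjusted *p* = 0.01) rests on levels near the lowest in the files. The call was lost with the mean of each library series as 1 replicate, with or without library series as a block. It was also lost with only the groups compared. *Tbx2* (-1.32, adjusted *p* = 0.0664) and *Tbx6* (-1.21, adjusted *p* = 0.191) did not pass in limma, whereas a block for the replicate number gave adjusted *p* of 0.00477 and 0.0408. With library series as a block both passed as well (0.00247 and 0.0345). Calls over all 20594 genes rose too, from 5138 to 9050 with the replicate block and 9255 with the series block. *Tbx2* also passed with a pseudocount of 1, with quantile normalization, and when control ESC replicate 1 or control EB replicate 4 was left out (adjusted *p* of 0.0463 and 0.042). *Tbx1* (1.03, adjusted *p* = 0.201) passed without control EB replicate 5, in which it was at 0 (adjusted *p* = 0.0148), and without the third library series. *Tbx15* did not pass, with a log2 fold change of 1.19 (adjusted *p* = 0.187).

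In the point mutant line *Tbx3* was the single member that changed between control ESCs and control EBs, where 4.73% of the 20279 genes tested did (2.73% higher and 2% lower). It had 22.4 and 34.3 TPM in EBs, below both ESC libraries (log2 fold change -2.62, SE 0.21, adjusted *p* = 0.00181, limma). *Tbx4* was at 0.458 and 0.0481 TPM in ESCs and at 1.21 and 2.23 TPM in EBs, with no overlap, and did not pass (log2 fold change 2.60, adjusted *p* = 0.11). *Tbx18* and *Tbx20*, which fell in the *Pcgf1* line, were already at or below 0.336 TPM in the control ESCs of the point mutant line.

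The next comparison asked how the members changed when *Pcgf1*-KO ESCs became EBs. *Tbx3* and *Tbx18* fell and no member rose, 2 of 9, while 18.3% of genes changed (8.13% higher and 10.2% lower). *Tbx3* had 183, 549, 478, 259 and 250.3 TPM in *Pcgf1*-KO ESCs and 29.6, 43.5, 20.9, 84.7 and 74.8 TPM in *Pcgf1*-KO EBs. The groups did not overlap (log2 fold change -2.83, SE 0.40, adjusted *p* = 5.45e-05). *Tbx18* had between 0.847 and 2.37 TPM in *Pcgf1*-KO ESCs and 0.219, 0.0950, 0, 0.252 and 0.354 TPM in *Pcgf1*-KO EBs, again without overlap (log2 fold change -2.63, SE 0.45, adjusted *p* = 3.34e-04). With the number as a block 5 members passed, the others being *Tbx2* (-1.32, adjusted *p* = 0.00394), *Tbx4* (0.97, adjusted *p* = 0.0293) and *Tbx20* (-1.07, adjusted *p* = 0.0471), which had adjusted *p* of 0.065, 0.139 and 0.0865 without it. The replicate block raised the calls over all 20594 genes as well, from 3770 to 7573. With series means as replicates and library series as a block, *Tbx2* passed (0.0286), while *Tbx4* (0.069) and *Tbx20* (0.162) did not. *Tbx4* had 0.299, 0.994, 1.01, 0.650 and 0.498 TPM in *Pcgf1*-KO ESCs and 1.15, 3.82, 2.05, 0.723 and 0.622 TPM in *Pcgf1*-KO EBs. Its *Pcgf1*-KO EB libraries of the third series lay among the *Pcgf1*-KO ESC libraries and the other 3 above them. Leaving out control EB replicate 1, which enters through the shared estimate of the spread, brought the count to 4 by adding *Tbx2* and *Tbx20*. *Tbx2* also passed without *Pcgf1*-KO ESC replicate 1 or *Pcgf1*-KO EB replicate 4. *Tbx1* (1.26, adjusted *p* = 0.11) passed without control EB replicate 5 or the third series.

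Loss of *Pcgf1* was then examined at each stage. In ESCs no member passed in limma, where 0.641% of genes did (0.32% in each direction). Without adjustment 4 members had a limma *p* under 0.05, a level at which the share of all genes was not counted. With pairs of the same number as a block, *Tbx1* and *Tbx20* passed, and 1094 of 20594 genes did, against 132 without it. *Tbx20* had 5.54, 10.1, 9.78, 4.58 and 4.34 TPM in *Pcgf1*-KO ESCs. Every one of them was above the highest control ESC library, which had 3.46 TPM (log2 fold change 1.63, SE 0.44, adjusted *p* = 0.118, and 0.0308 with the block). *Tbx1* had 0.115, 0.218, 0 and 0.208 TPM in control ESCs and 0.749, 0.712, 1.13, 1.01 and 1.11 TPM in *Pcgf1*-KO ESCs. These groups did not overlap either (log2 fold change 2.26, SE 0.55, adjusted *p* = 0.0751, and 0.0194 with the block). Leaving out control EB replicate 5 also brought *Tbx1* past the threshold, at adjusted *p* of 0.0245. With series means as replicates and library series as a block neither gene passed (0.119 for *Tbx1* and 0.176 for *Tbx20*). *Tbx3* in *Pcgf1*-KO ESCs lay within the range of the controls or below it, with a log2 fold change of -0.25 (SE 0.42, adjusted *p* = 0.998), and it was lower in 4 of 4 same-numbered pairs by 0.0165 to 0.283 on the log2 scale. *Tbx15* had a log2 fold change of 1.39 (adjusted *p* = 0.524), and the other 5 members lay between -0.75 and 0.60.

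In EBs *Tbx1* and *Tbx20* were higher without *Pcgf1*, 2 of 9 members, where 1.95% of genes changed (1.08% higher and 0.874% lower). *Tbx20* had 1.21, 0.252, 0.411, 0.276 and 0.199 TPM in control EBs and 2.36, 4.65, 2.42, 3.19 and 2.91 TPM in *Pcgf1*-KO EBs. All *Pcgf1*-KO libraries were above all controls (log2 fold change 2.68, SE 0.42, adjusted *p* = 0.00254, limma). *Tbx1* had 0.591, 0.595, 0.873, 0.244 and 0 TPM in control EBs and 2.72, 3.65, 2.93, 1.31 and 1.89 TPM in *Pcgf1*-KO EBs, also without overlap (log2 fold change 2.49, SE 0.52, adjusted *p* = 0.0162). Without the third library series neither passed, with log2 fold changes of 2.32 for *Tbx20* (adjusted *p* = 0.162) and 2.03 for *Tbx1* (adjusted *p* = 0.131), and no member did. That fit called 38 of 19555 genes, against 402 of 20594 with all series. With the mean of each library series as 1 replicate the count of members was again 0, where 4 genes were called in all. With library series as a block added to that limma fit, *Tbx1* (adjusted *p* = 0.041) and *Tbx20* (adjusted *p* = 0.039) passed. The count of members was 2 or more when any single library was left out.

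*Tbx3* was higher in *Pcgf1*-KO EBs than in control EBs in 5 of 5 same-numbered pairs, by 0.51 to 2.12 on the log2 scale. These pairs come from 3 library series, within which libraries were close to each other. The groups overlapped, since replicate 3 of *Pcgf1*-KO had 20.9 TPM and control replicate 2 had 21.9 TPM. The log2 fold change was 1.47 (SE 0.40, adjusted *p* = 0.0668, and 0.00998 with the block). Within the 3 library series the difference was 1.64, 0.75 and 2.10 on the log2 scale, so that the third series differed most, and leaving out *Pcgf1*-KO replicate 3 gave an adjusted *p* of 0.0247. *Tbx4* went the other way, with *Pcgf1*-KO EBs lower in 5 of 5 pairs (log2 fold change -1.69, SE 0.43, adjusted *p* = 0.0512, and 0.00415 with the block). Within the series its difference was -1.27, -0.96 and -2.62. Leaving out *Pcgf1*-KO EB replicate 2 or 3, or *Pcgf1*-KO ESC replicate 1, brought *Tbx4* past the threshold, and without *Pcgf1*-KO EB replicate 3 there were 4 members that passed. With series means as replicates and library series as a block *Tbx3* passed (adjusted *p* = 0.048) and *Tbx4* did not (0.0681). How many of all genes passed with the replicate block is not given for this comparison. *Tbx2*, *Tbx5*, *Tbx6* and *Tbx15* had log2 differences between -0.09 and 0.12, and *Tbx18* one of 0.67.

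The effect of *Pcgf1* loss in EBs less that in ESCs was tested directly, and no member passed, where 0.00486% of genes did. For *Tbx3* this difference was 1.72 on the log2 scale (SE 0.58, adjusted *p* = 0.601, and 0.0818 with the block). In this limma test 2 members had an unadjusted *p* under 0.05, a level at which the share of all genes was not counted.

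**Figure D2:**
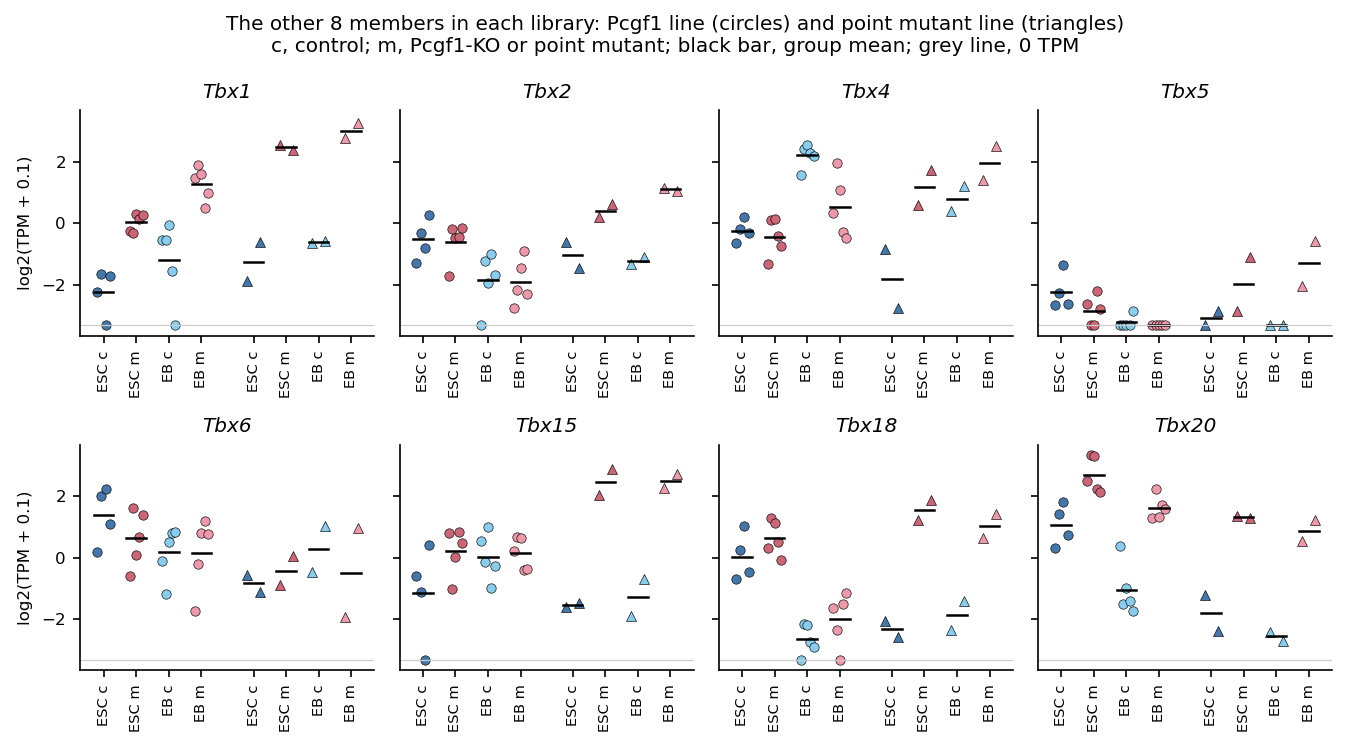
Levels of the other 8 members as log2(TPM + 0.1), 1 point per library, in the *Pcgf1* line (circles) and the point mutant line (triangles), with a black bar at the group mean and a grey line at 0 TPM. *Tbx1* and *Tbx20* are separate between control and mutant EBs in both lines. *Tbx2*, *Tbx4*, *Tbx5*, *Tbx15* and *Tbx18* are separate in the point mutant line, where *Tbx6* overlaps and where *Tbx4* and *Tbx5* did not pass the threshold. With 2 libraries per group in that line such separation is easily reached, and its share over all genes was not counted.

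In the point mutant line the question was what happens when RING1A and RING1B both carry the mutation. In ESCs *Tbx1*, *Tbx15*, *Tbx18* and *Tbx20* were higher with 4-OHT, 4 of 9 members, where 2.54% of genes changed (2.34% higher and 0.197% lower). The median gene of this comparison was itself 0.12 higher on the log2 scale, and in EBs 0.10 higher, a shift that median-of-ratios scaling removes. *Tbx1* had 0.170 and 0.562 TPM in control ESCs and 5.77 and 5.19 TPM in mutant ESCs, a log2 fold change of 3.72 (SE 0.49, adjusted *p* = 0.0187, limma). *Tbx15* had 0.232 and 0.263 TPM in controls and 4.08 and 7.32 TPM in mutants, the largest change of the 9 (log2 fold change 4.00, SE 0.53, adjusted *p* = 0.0188). *Tbx18* had 0.142 and 0.0669 TPM in controls and 2.25 and 3.61 TPM in mutants (log2 fold change 3.88, SE 0.54, adjusted *p* = 0.021). *Tbx20* had 0.336 and 0.0909 TPM in controls and 2.48 and 2.36 TPM in mutants (log2 fold change 3.13, SE 0.52, adjusted *p* = 0.0308). The groups were apart in all of these genes, and in 6 of the 9 members altogether. With 2 libraries per group such separation is easily reached, and its share over all genes was not counted. Between mutant ESCs and mutant EBs 4 of 9 members were apart, and none passed.

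*Tbx3* had 175 and 145 TPM in mutant ESCs, within and just below the controls (log2 fold change -0.10, SE 0.21, adjusted *p* = 0.909). *Tbx4* (2.98, adjusted *p* = 0.0948), *Tbx2* (1.45, adjusted *p* = 0.152) and *Tbx5* (1.11, adjusted *p* = 0.506) had higher fitted values in mutant ESCs and did not pass. With 2 libraries per group these calls are fragile. When any 1 of the 8 libraries of the line was left out, no member passed in ESCs, while the log2 fold changes of the 4 genes stayed between 2.53 and 4.42. These fits called 22 to 52 genes in all, against 515 with all libraries.

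In EBs of the point mutant line 6 of 9 members were higher with 4-OHT and none lower, where 4.53% of genes changed (3.76% higher and 0.764% lower). *Tbx3* had 22.4 and 34.3 TPM in control EBs and 110.5 and 119.9 TPM in mutant EBs. Mutant EBs were thus closer to ESCs than to control EBs in *Tbx3*, and the groups were apart (log2 fold change 2.05, SE 0.21, adjusted *p* = 0.0099, limma). *Tbx1* had 0.545 and 0.572 TPM in controls and 6.73 and 9.59 TPM in mutants, the highest of the 8 members below *Tbx3* (log2 fold change 3.63, SE 0.49, adjusted *p* = 0.0138). *Tbx15* had 0.170 and 0.521 TPM against 4.77 and 6.60 TPM (log2 fold change 3.80, SE 0.53, adjusted *p* = 0.015). *Tbx20* had 0.0881 and 0.0540 TPM against 1.38 and 2.23 TPM (log2 fold change 3.44, SE 0.52, adjusted *p* = 0.0186). These 3 genes of different tissues were at 0.572 TPM or less in control EBs. *Tbx18* had 0.0974 and 0.278 TPM against 1.46 and 2.57 TPM (log2 fold change 2.90, SE 0.54, adjusted *p* = 0.0324). *Tbx2* had 0.298 and 0.365 TPM against 2.11 and 2.01 TPM (log2 fold change 2.33, SE 0.45, adjusted *p* = 0.0361).

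*Tbx4* did not pass in these EBs (log2 fold change 1.16, adjusted *p* = 0.447), nor did *Tbx5*, which was listed at 0 in both control libraries (adjusted *p* = 0.154). *Tbx6* had 0.620 and 1.95 TPM in controls and 0.163 and 1.86 TPM in mutants, with no separation. When 1 of the 8 libraries was left out, between 0 and 4 members passed in EBs. The count was 0 without either mutant ESC library, either mutant EB library or control EB replicate 1, it was 1 without control EB replicate 2, it was 3 without control ESC replicate 2, and it was 4 without control ESC replicate 1. These fits called 9 to 357 genes in all, against 918 with all libraries, with 9 without either mutant ESC library. The median log2 fold change of the 9 members was 2.98 in ESCs and 2.33 in EBs, against 0.12 and 0.10 over all genes.

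Between mutant ESCs and mutant EBs of the point mutant line no member passed in limma, where 0.133% of genes did (0.0493% higher and 0.0838% lower), and 0 members had an unadjusted *p* under 0.05. *Tbx3* went from 175 and 145 TPM to 110.5 and 119.9 TPM, a log2 fold change of -0.47 (SE 0.21, adjusted *p* = 0.52). The difference between the effect of the mutation in EBs and in ESCs was 2.15 on the log2 scale for *Tbx3* (SE 0.30, adjusted *p* = 0.107). No member passed that limma test, which 0.00986% of genes did (0.00493% in each direction). In it 1 member had an unadjusted *p* under 0.05, a level at which the share of all genes was not counted.

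**Figure D3:**
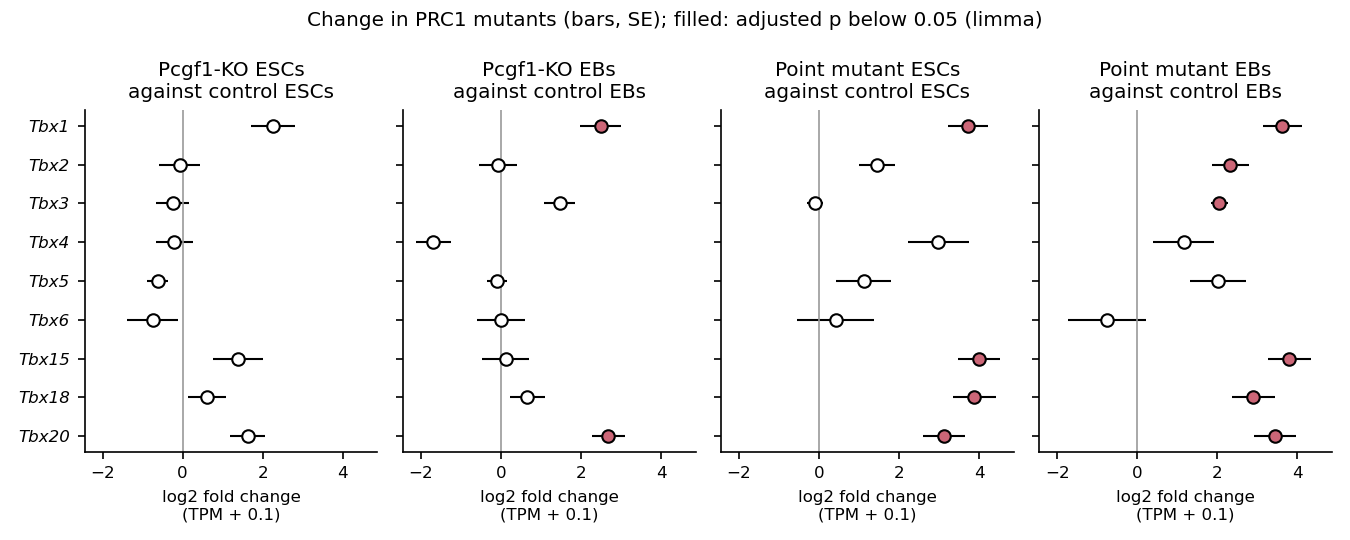
Log2 fold changes of the 9 members on the TPM + 0.1 scale with SE, for *Pcgf1*-KO against control (2 panels on the left) and the 4-OHT treated point mutant against its control (2 panels on the right), in ESCs and EBs. Filled points passed an adjusted *p* of 0.05, which are *Tbx1* and *Tbx20* in *Pcgf1*-KO EBs, 4 members in point mutant ESCs and 6 in point mutant EBs.

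The ESC samples were grown on fibroblasts, so a list of 21 fibroblast genes was measured beside the members. Summed over the list, control ESCs of the *Pcgf1* line held 336 to 397 TPM and *Pcgf1*-KO ESCs 273.7 to 329.6 TPM, while control EBs held 73.8 to 150.4 TPM and *Pcgf1*-KO EBs 45.6 to 83.4 TPM. Of the list, 11 genes fell and 3 rose from control ESCs to control EBs. *Col1a1*, a fibrillar collagen gene, went from 168 to 5.43 TPM on average, whereas *Dcn* of the same list went from 0.134 to 4.31 TPM. *Tbx18*, *Tbx20* and *Tbx5* fell in the same libraries, and the part of fibroblast RNA in their values was not tested. Between *Pcgf1*-KO and control EBs 2 genes of the list were higher and 2 lower, beside the higher *Tbx1* and *Tbx20*. In the point mutant line control ESCs held 74.6 to 83.9 TPM of the list and mutant ESCs 160.8 to 187.7 TPM, while control EBs held 71.4 to 95.3 TPM and mutant EBs 153.2 to 173.7 TPM. There 3 of 21 genes were higher in mutant ESCs and 9 of 21 in mutant EBs, alongside the members, and their part in the members' values was not tested. *Lum* was at 0 in every library of 4 of the 8 groups.

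**Figure D4:**
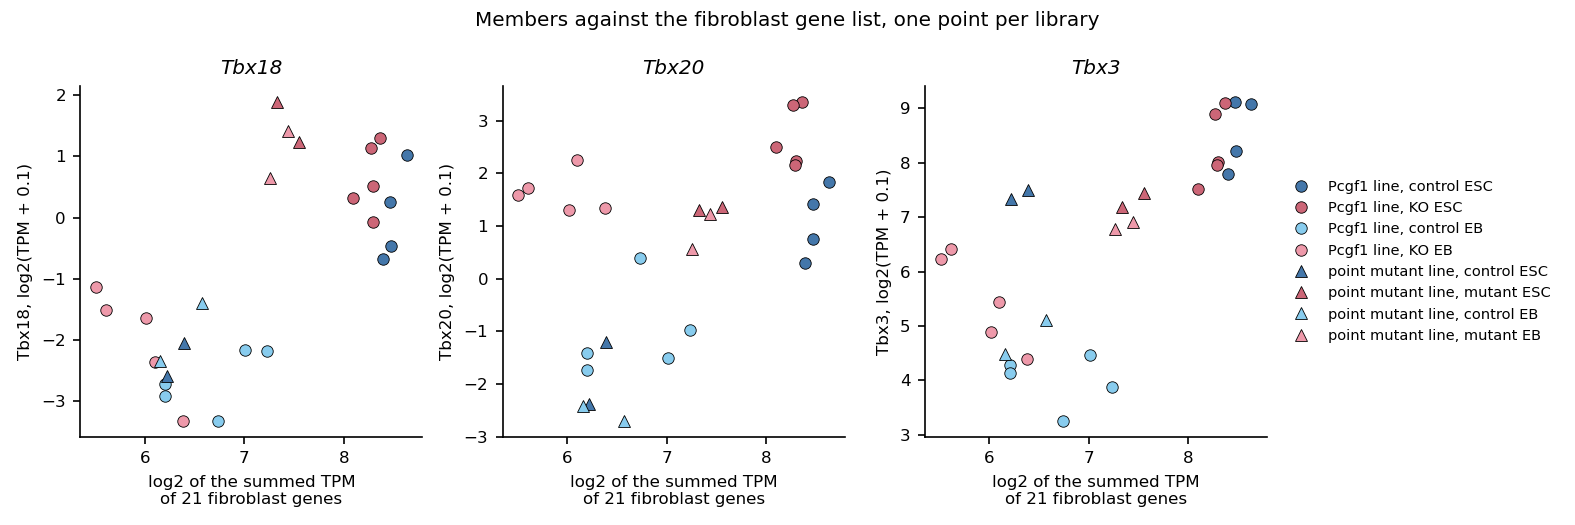
*Tbx18*, *Tbx20* and *Tbx3* as log2(TPM + 0.1) against the log2 of the summed TPM of 21 fibroblast genes, 1 point per library of the *Pcgf1* line (circles) and the point mutant line (triangles). ESCs of the *Pcgf1* line lie at the right, from 273.7 to 396.6 TPM, and *Tbx20* separates *Pcgf1*-KO from control EBs at the left, where the summed level is at most 150.4 TPM.

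Markers of the fates that the members belong to gave the following counts. Of 12 cardiac genes, 1 was higher in *Pcgf1*-KO EBs (2 higher and 1 lower with the block), 3 in point mutant ESCs and 4 in point mutant EBs. Control EBs of the *Pcgf1* line held 6.01 to 11.1 TPM of the cardiac list and *Pcgf1*-KO EBs 9.95 to 13.7 TPM, and in the point mutant line control EBs held 18.02 to 18.6 TPM and mutant EBs 46.4 to 62.6 TPM. Of 13 primitive streak and paraxial mesoderm genes, the fate that *Tbx6* marks, 4 rose from control ESCs to control EBs of the *Pcgf1* line, where *Tbx6* itself was between 0.338 and 1.69 TPM. Of 10 primitive endoderm genes 4 were higher in *Pcgf1*-KO EBs (6 with the block), where controls held 89.2 to 162.1 TPM of the list and *Pcgf1*-KO EBs held 87.2 to 205.4 TPM. Of 13 naive pluripotency genes, the state in which *Tbx3* is active, 11 fell from control ESCs to control EBs, 9 fell and 1 rose from *Pcgf1*-KO ESCs to EBs, and 3 were higher in *Pcgf1*-KO than in control EBs (7 with the block). Of 8 formative epiblast genes 7 rose in control EBs of both lines, and 5 were lower in point mutant EBs than in their controls. In the point mutant line 3 primitive endoderm genes were higher in mutant than in control ESCs and 3 in mutant than in control EBs. Control ESCs of that line held 64.04 to 73.3 TPM of the list and mutant ESCs 129.2 to 133.5 TPM, and control EBs held 90.9 to 98.1 TPM and mutant EBs 146.2 to 204.5 TPM. Of the primitive streak and paraxial mesoderm genes 3 were higher in its mutant ESCs and 4 in its mutant EBs, and of the naive genes 1 was lower in its mutant ESCs and 3 were higher in its mutant EBs. The part of such cells in the values of the members was not tested.

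Of the other T-box genes in the files, 7 could be tested in the *Pcgf1* line and 8 in the point mutant line. *Eomes*, a T-box gene of the primitive streak and endoderm, ranged from 13.4 to 29.95 TPM over control ESCs, from 24.2 to 56.8 TPM over *Pcgf1*-KO ESCs, from 3.28 to 6.83 TPM over control EBs and from 9.74 to 24.7 TPM over *Pcgf1*-KO EBs. It fell from control ESCs to EBs (log2 fold change -2.06, SE 0.34, adjusted *p* = 1.98e-04) and was higher in *Pcgf1*-KO than in control EBs (1.70, SE 0.32, adjusted *p* = 0.00831). *T* (Brachyury), the founding member of the family, fell from *Pcgf1*-KO ESCs to EBs (log2 fold change -2.50, adjusted *p* = 9.87e-04) and was higher in point mutant EBs than in their controls (2.88, adjusted *p* = 0.043). *Tbx22*, known from the palate, rose in control EBs of the *Pcgf1* line (adjusted *p* = 0.00101), where it was listed at 0 in all 4 control ESC libraries and reached at most 0.764 TPM in EBs.

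For members of at least 1 TPM in a group the genes with the most similar profile were sought over the 19 libraries of the *Pcgf1* line, by the root mean square difference of centred log2(TPM + 0.1). The nearest to *Tbx3* were *Nid1* (0.40), *Mapt* (0.46), *Cadm4* (0.46), *Tfcp2l1* (0.46) and *Rusc2* (0.48), where the profile of *Tbx3* itself had an SD of 2.06. The nearest to *Tbx4* were *Camkv* (0.36), *Plcg2* (0.38), *Gatsl2* (0.39), *Adgrv1* (0.45) and *Clip3* (0.46). *Tbx20* had *Eomes* as its nearest gene (0.61) and *Tbx1* had *Plk5* (0.67), both farther off than the nearest genes of *Tbx3* and *Tbx4*. The nearest to *Tbx18* was *Fam81a* (0.49), to *Tbx6* *Gm16907* (0.48) and to *Tbx15* *Rmdn2* (0.60).

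In the *Ring1A/B* line, whose cells are ERT2-Cre;Ring1a-/-;Ring1bf/f without 4-OHT and ERT2-Cre;Ring1a-/-;Ring1bdelta/delta with it, libraries of the same label gave similar values. *Tbx3* had 274 and 281 TPM in the libraries labelled control ESC and 19.8 and 18.99 TPM in those labelled mutant ESC. It had 269 and 283 TPM in those labelled control EB and 208 and 206 TPM in those labelled mutant EB. The libraries labelled mutant ESC and control EB are those whose file names give the other of these 2 conditions. Among all 59 libraries the highest values of *Tbx1* and *Tbx20* were in those labelled mutant EB of this line, and the highest of *Tbx2*, *Tbx5*, *Tbx15* and *Tbx18* in those labelled control EB. *Tbx1* reached 21.3 and 20.2 TPM and *Tbx20* 12.9 and 12.7 TPM in the libraries labelled mutant EB, against 0.674 and 0.512 TPM and 1.40 and 1.40 TPM in those labelled control ESC, where label and file name match. *Tbx15* had 8.67 and 8.55 TPM in the former and 0.941 and 1.03 TPM in the latter. *Tbx4*, *Tbx18* and *Tbx2* also had more in the former (5.88 to 7.79, 3.20 to 4.09 and 2.64 to 3.43 TPM) than in the latter (0.717 to 0.919, 1.10 to 1.34 and 0.819 to 1.17 TPM), whereas *Tbx6* had less (1.08 and 1.47 against 1.79 and 2.52 TPM).

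In the *Pcgf2/4* line (ERT2-Cre;Pcgf2f/f;Pcgf4f/f and its delta/delta form) the 2 libraries of a label did not resemble each other. *Tbx3* had 137 and 11.4 TPM in those labelled control ESC, 112 and 12.9 TPM in those labelled mutant ESC, 115 and 21.2 TPM in those labelled control EB and 123 and 23.8 TPM in those labelled mutant EB. Replicate 1 was high and replicate 2 low at every label. *Tbx4* ran the other way, from 0.713 to 1.93 TPM in the first replicates and from 2.76 to 9.20 TPM in the second. The *Pcgf6* line (ERT2-Cre;Pcgf6f/f and delta/delta) had the same arrangement, with *Tbx3* between 103 and 124 TPM in all first replicates and between 5.11 and 26.003 TPM in all second ones. In both lines only the first control ESC and the second mutant EB library have a file name that matches the label. The *Pcgf6* transcript was at 91.5 and 67.05 TPM under the control ESC label of that line and at 104.6 and 78.8 TPM under the mutant ESC label. It was at 34.7 and 35.7 TPM under the control EB label and at 36.9 and 46.3 TPM under the mutant EB label. By label it was thus not lower in the mutant groups. Each label of this line, however, joins a first replicate whose file name gives ESC with a second whose file name gives EB. These label groups therefore cannot check the deletion.

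In the *Pcgf3/5* line (ERT2-Cre;Pcgf3f/f;Pcgf5f/f and its delta/delta form) *Tbx3* had 169.5 and 142 TPM in the libraries labelled control ESC and 152 and 28.5 TPM in those labelled mutant ESC. It had 27.8 and 22.3 TPM in those labelled control EB and 22.5 and 164 TPM in those labelled mutant EB. The other 8 members stayed between 0 and 2.45 TPM in all 8 libraries of this line, with *Tbx4* and *Tbx6* the highest of them. In each of these 3 lines *Tbx3* fell into a high and a low set of 4 libraries, with no library between 28.5 and 103 TPM, and in each of them some labels had a library in both sets. All 12 libraries of the high sets have a file name that gives ESC, and all 12 of the low sets one that gives EB. The summed TPM of the 13 naive genes was 2704 to 3362 TPM in the libraries so named as ESC and 1363 to 1913 TPM in those so named as EB. For the 8 formative epiblast genes it was 180.4 to 289.3 TPM and 649.6 to 1364 TPM. These sums follow the file names, as *Tbx3* does, and not the labels.

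**Figure D5:**
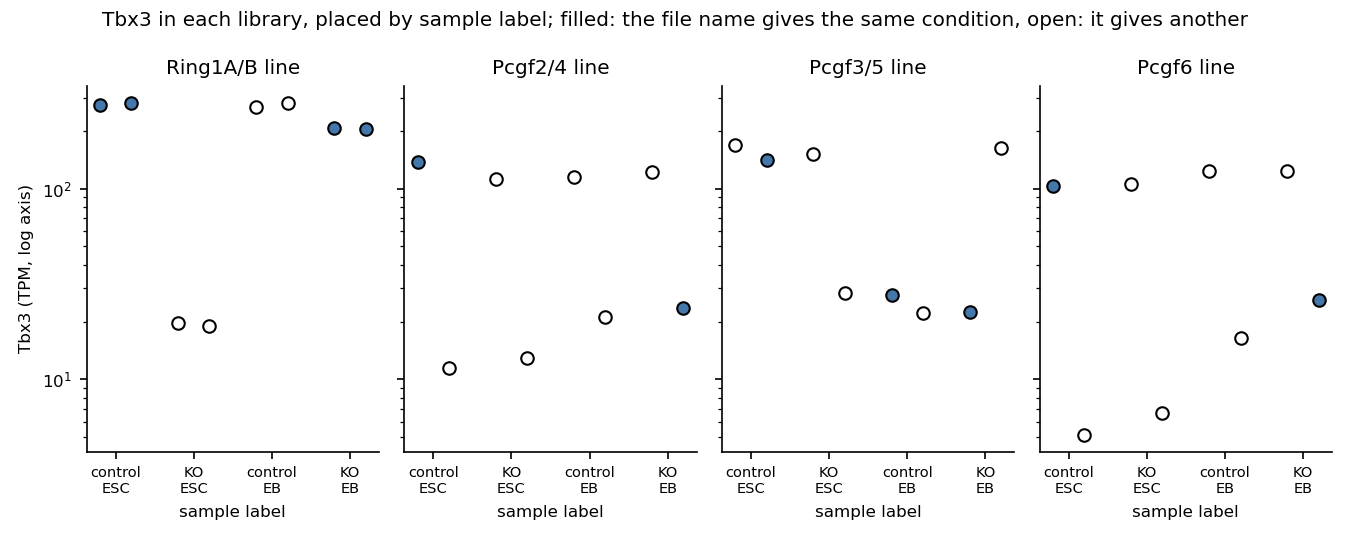
*Tbx3* in TPM on a log axis in each library of the 4 other lines, placed by its sample label (control or KO, ESC or EB). Filled points are the 11 libraries whose file name gives the same condition as the label and open points the 21 whose file name gives another, and both a high and a low library are found under every label of the *Pcgf2/4* and *Pcgf6* lines and under the 2 KO labels of the *Pcgf3/5* line.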

How the data were processed

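RNA-seq of 59 libraries from 6 mouse ESC lines and their EBs was used. Per the labels and the methods of the study, the authors aligned single-end reads with STAR 2.5.2b to mm9 and counted them on exons. The TPM values that the authors deposited were used as they are. How counts became TPM is not given in the sources used here, and the depth is unknown. Groups came from the sample labels (for 1 *Pcgf1*-KO EB library the replicate number of the title was used).

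log2(TPM + 0.1) of all genes above 0 in at least 1 library of a line was fitted with limma 3.58.1 (R 4.3.3, empirical Bayes with trend), in 1 fit per line over 4 groups, two-sided, with Benjamini-Hochberg adjustment over all genes and a threshold of 0.05. Such fold changes understate the change of low genes. The study normalized counts with DESeq2, a count model that TPM do not allow. The fit was run on simulated data with independent noise in each library and with changes only in better expressed genes. That run therefore does not show how the fit performs for low genes or for close libraries of 1 series.

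The members and lists were chosen with earlier results of these data known. By rule all members were named in each comparison, lists were given by counts, other T-box genes could be named, and the genes nearest to a member were taken by the lowest root mean square difference. Promoters are RefSeq's (GRCm38.p6) and positions GENCODE's (NCBIM37, which is mm9).

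In the *Pcgf1* line same-numbered libraries deviated together (27 pairs, correlation across 13400 genes 0.317 to 0.653, own number best in 18). Such libraries also share a library series, so this does not separate a pairing by number from closeness within a series. The fit with the replicate number as a block is given where it changes a call. It treats close libraries of 1 series as separate pairs. Alternatives were a pseudocount of 1, a mean TPM of at least 1, no filter, median-of-ratios scaling, quantile normalization, the block, only the groups compared, and leaving out each library. Library series as a block, omission of the third series and means of each series were added after seeing the data.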

Additional observations from a re-analysis of the deposited data

Results flagged for a closer look

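Of 36 sets of 4 or 5 libraries of 1 group in the *Pcgf1* line that were examined for a library far from the others on the log2(TPM + 0.1) scale, 2 held one, where chance alone gives about 1 in 20. *Tbx2* in *Pcgf1*-KO ESCs had 0.205 TPM in replicate 1, while the other 4 libraries lay between 0.616 and 0.809 TPM. *Tbx5* in control EBs had 0.0386 TPM in replicate 5 and was listed at 0 in the other 4. Both values are under 1 TPM, and no call in the *Pcgf1*-KO against control comparisons rests on either gene.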

How the results depend on the processing

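The counts of members past the threshold changed as follows. From control ESCs to control EBs of the *Pcgf1* line, 5 members became 3 among genes with a mean of at least 1 TPM and 3 with the mean of each library series as 1 replicate, 4 with only the groups compared, 6 with a pseudocount of 1, quantile normalization or without the third series, and 7 with library series as a block. From *Pcgf1*-KO ESCs to EBs, 2 became 5 with a pseudocount of 1 or with library series as a block, 4 with only the groups compared, 1 among genes with a mean of at least 1 TPM, and 2 to 4 when single libraries were left out. In *Pcgf1*-KO against control ESCs, 0 became 1 with a pseudocount of 1, quantile normalization or only the groups compared, 2 with library series as a block, and 0 to 1 without single libraries. In *Pcgf1*-KO against control EBs, 2 became 4 with median-of-ratios scaling or library series as a block, 0 without the third series or with series means and no block, 1 with only the groups compared, and 2 to 4 without single libraries. With series means and library series as a block *Tbx1*, *Tbx3* and *Tbx20* passed there. The replicate block gave 7 members from control ESCs to control EBs, 5 from *Pcgf1*-KO ESCs to EBs, 2 in *Pcgf1*-KO against control ESCs and 4 in *Pcgf1*-KO against control EBs, and it changed no other call of a member than those given with their values. In the comparisons listed next the blocks raised calls over all 20594 genes as well. From control ESCs to control EBs they gave 9050 (replicate) and 9255 (series), against 5138 without a block. From *Pcgf1*-KO ESCs to EBs they gave 7573 and 7886, against 3770. In *Pcgf1*-KO against control ESCs the replicate block gave 1094, against 132. In *Pcgf1*-KO against control EBs 402 genes were called without a block. The counts over all genes with a block or with median-of-ratios scaling are not given here for that comparison. The rise from 2 to 4 members there therefore cannot be set against a rise over all genes.

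In the point mutant line only 2 replicate numbers pair each comparison (12 pairs, correlation 0.106 to 0.381, own number closest in 12), and the replicate block left 1, 0, 4 and 6 members past the threshold, as without it. Without a filter 4 became 0 in ESCs and 6 became 2 in EBs, with only the groups compared they also became 0 and 2 (0 genes were called in all in ESCs, and 169 in EBs), and leaving out single libraries gave 0 to 0 and 0 to 4. A lone library was then assumed to vary like the other groups. *Tbx3* in mutant against control ESCs turned from -0.10 to 0.035 on the log2 scale without mutant ESC replicate 2, neither past the threshold, over a range of -0.23 to 0.035. The cause of these changes was not tested. Of the other fold changes given one by one, 871 kept their direction and their side of the threshold, 99 lost a call and 52 gained one. Over all 90 pairs of a member and a comparison, 24 changed sign under at least 1 alternative, that of *Tbx3* included, all with fold changes between -1.17 and 0.66 and none past the threshold with either sign. Depth is unknown, so values below 1 TPM have no stated precision.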
